A study of Mus musculus with 12 samples.

Results

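The genes described here are 8 members of the C-type lectin and collectin families that myeloid cells use to recognise sugars and related ligands at the cell surface. They were chosen by name, as the rows of the count table whose Ensembl identifiers belong to *Clec7a*, *Mgl2*, *Colec12*, *Clec4a1*, *Clec4a2*, *Clec4a3*, *Clec5a* and *Clec12a*, and they are 8 of 55487 genes in the table. All 8 had reads, and all 8 passed the filter on low counts that left 16908 genes for testing. *Mgl2*, *Colec12* and *Clec12a* were at or near 0 in several libraries, and passed through the libraries in which they were present.

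RNA was sequenced from microglia of the basal forebrain and striatum of YARG mice at postnatal day 13. In YARG mice a yellow fluorescent protein sits downstream of the stop codon of *Arg1*, so that a sort on this protein reports activity of the *Arg1* locus. All cells were CX3CR1+ and CD206-, and they were divided into ARG1+ and ARG1- microglia, with 3 libraries for each sex of each population and tissue of several brains of 1 sex pooled in a library. The labels name no other allele or treatment, and do not say which ARG1+ and ARG1- libraries came from the same brains, so that p values measure the spread between these pools. Libraries are named by the number in their labels (ARG1- females 1, 2 and 13, ARG1- males 5, 6 and 14, ARG1+ females 7, 8 and 15, ARG1+ males 11, 12 and 16).

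A C-type lectin receptor binds its ligand through a calcium-dependent or related lectin fold outside the cell. Activating receptors carry a tyrosine-based motif or borrow one from the adaptors encoded by *Tyrobp* and *Fcer1g*, and signal through the kinase SYK. Inhibitory receptors carry a different tyrosine motif and recruit phosphatases such as SHP-1, the product of *Ptpn6*. In microglia, *Clec7a* is best known as one of the genes switched on in disease-associated and developmental phagocytic states.

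Total counts lay between 28356659 and 60625170 per library, and each value per library is given as CPM, in which the reads of a gene are scaled by the TMM-normalized total of the library. Molecular identifiers were not part of the reads, so that copies of 1 amplified molecule are counted separately and intervals from counts cover counting error only. After all libraries had been thinned to 28356659 counts, ARG1- libraries held reads of 17628 to 19372 genes and ARG1+ libraries of 18899 to 21734. Of a list of 12 microglia genes, 9 were lower and 1 was higher in ARG1+ microglia, and none was at 0. Of all genes tested, 9.42% were lower and 6.44% higher. Summed over the microglia list, the levels were 58730 to 77730 CPM in ARG1- and 46050 to 57520 CPM in ARG1+ libraries. In bulk samples, fewer cells of a type and less RNA per cell cannot be told apart.

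Of the 8 genes, *Clec7a* and *Colec12* were higher and *Clec4a2* and *Clec5a* were lower in the ARG1+ population, and the other 4 did not pass the test (edgeR's quasi-likelihood test with sex as a term, Benjamini–Hochberg adjusted p under 0.05 over all genes tested). Of all genes tested, 15.9% passed, with 6.44% higher and 9.42% lower in ARG1+ microglia. The lowest ARG1+ library exceeded the highest ARG1- library for *Clec7a* and *Colec12*, which was so for 3.48% of all genes tested, and the reverse held for *Clec4a2*, as for 6.56% of all genes tested. The median log2 fold change of the 8 genes was 0.86, beside 0.06 over all genes tested, but the members moved in both directions and the value rests on *Mgl2*, *Clec12a* and *Colec12*, so that no direction of the group is read from it. The 2 genes that rose include a receptor that activates SYK and a collectin, whereas the 2 that fell are an inhibitory receptor and a receptor that signals through the adaptor DAP12.

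**Figure D1:**
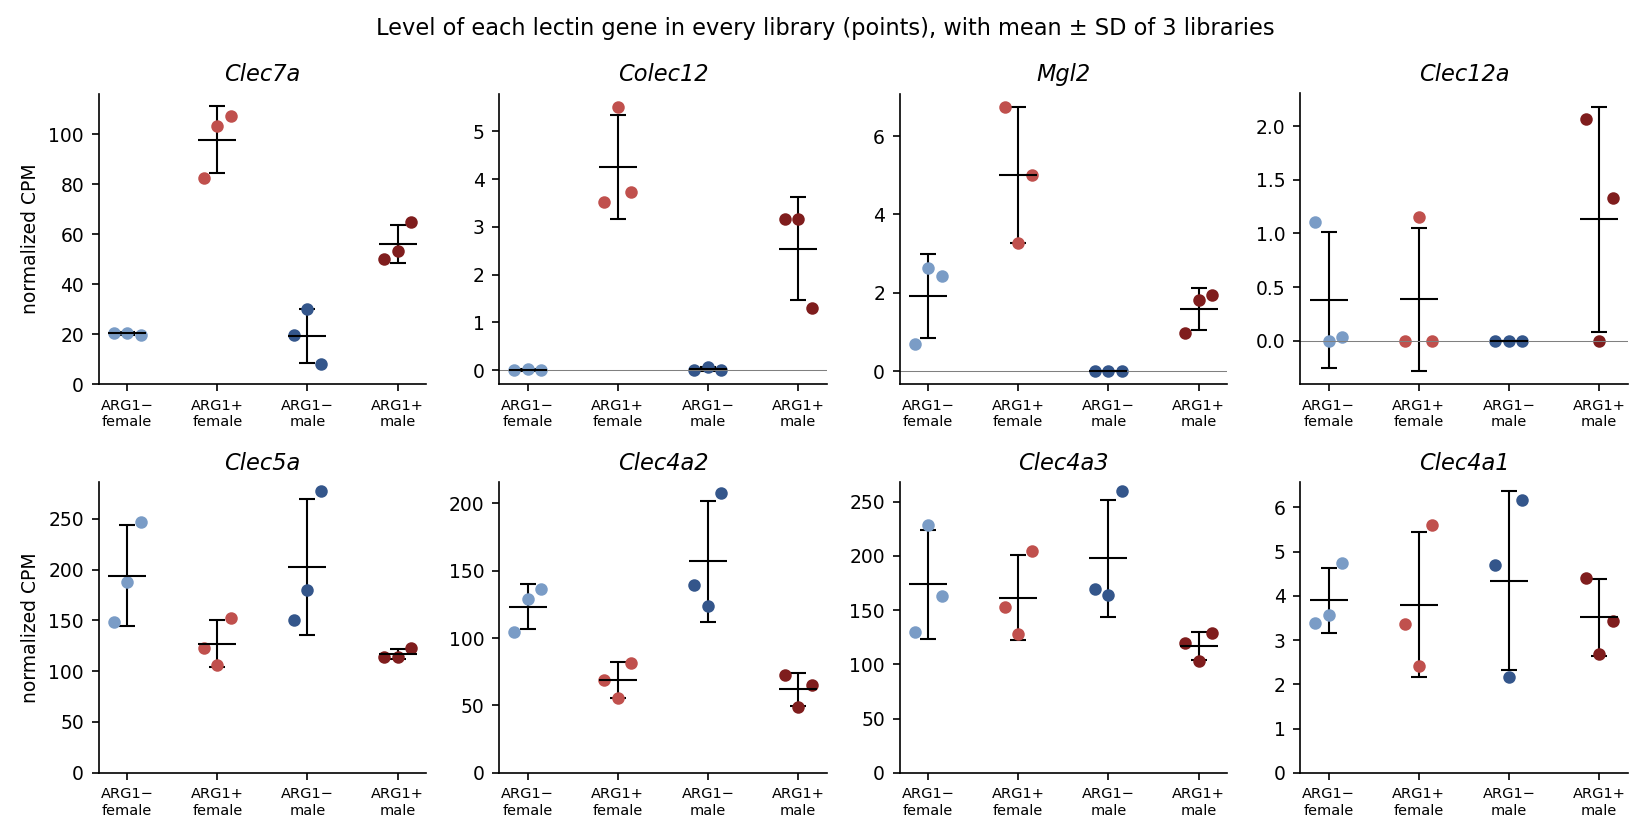
Normalized CPM (vertical axes, linear, each gene with its own scale) of the 8 genes in the 4 groups, with points for libraries and bars for the mean ± SD of 3 libraries. *Clec7a* lay between 50.1 and 107.4 CPM in ARG1+ libraries and between 8.11 and 30.1 CPM in ARG1- libraries, *Mgl2* was at 0 in all 3 ARG1- male libraries, and *Clec12a* was at 0 in most libraries.

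*Clec7a* (ENSMUSG00000079293) encodes Dectin-1, a receptor for beta-glucans of fungal cell walls that carries its own activating motif. It lies at chr6:129461591-129472779 on the minus strand of GRCm38, has 6 blocks of exon sequence, and is annotated in GENCODE M21 as a polymorphic pseudogene. Its levels were 20.7, 20.6 and 19.8 CPM in ARG1- females and 19.8, 30.1 and 8.11 CPM in ARG1- males. In ARG1+ microglia they were 82.4, 103.5 and 107.4 CPM in females and 50.1, 53.4 and 64.9 CPM in males. No ARG1+ library reached down to the ARG1- range. Within ARG1+ microglia all 3 female values exceeded all 3 male values, and the share of all genes tested for which this was so was not computed. This sex difference did not pass the test (-0.80 on the log2 scale, males minus females, adjusted p = 1, unadjusted p = 0.0419). Over both sexes the mean was 19.9 ± 6.98 CPM in ARG1- and 77.0 ± 24.8 CPM in ARG1+ microglia (SD, n = 6), and the log2 fold change was 1.90 (SE 0.268, 95% interval 1.32 to 2.48, adjusted p = 0.00105).

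The rise of *Clec7a* was 2.26 on the log2 scale in females (adjusted p = 0.00923) and 1.54 in males (adjusted p = 0.0358), and the test of the difference between these effects gave an adjusted p of 0.709. For comparison, 6.76% of all genes tested passed in females, 5.13% in males, and 0% in the test of the difference, where 9.32% had an unadjusted p under 0.05. ARG1- male replicate 14 held the lowest level of *Clec7a*, and without it the ratio of the population means went from 3.88 to 3.47. Between the single libraries numbered 13 to 16, the ARG1+ level was 5.43 times the ARG1- level in females and 8.0 times in males.

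The 250 bases before the RefSeq start of *Clec7a* and of *Clec5a* are shown in GRCm38.p6, 5′ to 3′ on the strand of each gene, because these genes moved in opposite directions and a reader can compare what lies before their starts. Capitals mark matches, on either strand, to motifs of factors that act in macrophages. The motifs searched were the ETS core GAGGAA, as bound by PU.1, the STAT motif TTCNNNNGAA, the ETS-IRF composite motif GGAANNGAAA, the AP-1 motif TGANTCA, the E-box CANGTG of the MiT/TFE type and the TATA box TATAAA. The *Clec7a* window is chr6:129472780-129473029, and the *Clec5a* window is chr6:40585806-40586055, whose last 16 bases lie after the start that GENCODE gives.
Clec7a: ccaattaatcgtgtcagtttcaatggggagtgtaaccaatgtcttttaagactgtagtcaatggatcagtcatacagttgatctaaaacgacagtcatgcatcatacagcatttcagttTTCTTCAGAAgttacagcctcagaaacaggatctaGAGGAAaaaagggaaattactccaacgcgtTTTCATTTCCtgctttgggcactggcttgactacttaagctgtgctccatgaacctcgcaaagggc
Clec5a: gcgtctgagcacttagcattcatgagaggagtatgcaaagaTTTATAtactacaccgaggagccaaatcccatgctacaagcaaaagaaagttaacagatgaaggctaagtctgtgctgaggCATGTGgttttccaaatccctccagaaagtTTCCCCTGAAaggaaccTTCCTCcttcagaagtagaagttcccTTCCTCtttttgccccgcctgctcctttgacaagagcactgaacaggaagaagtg

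Before *Clec7a* stood 1 ETS core, whose first base was at -96 from the start, 1 STAT motif at -131 and 1 ETS-IRF composite motif at -66. Before *Clec5a* stood 2 ETS cores, at -81 and -55, 1 STAT motif at -98, 1 E-box at -128 and the letters of a TATA box at -209. Of 32817 mouse windows of the same length, 23.3% held the ETS core, 5.85% the STAT motif, 2.3% the composite motif, 39.5% the E-box, 12.4% the TATA box and 6.75% the AP-1 motif. The ETS core and the STAT motif were thus in both windows, and the composite motif was in that of *Clec7a* alone of the pair. A match is a description of the letters, and binding was not measured. Windows were read for 7 of the 8 genes, and those of the pair alone are shown. The window of *Clec4a1*, which did not pass the test between the populations, also held the ETS core, the STAT motif and the composite motif. That of *Clec4a2*, which fell as *Clec5a* did, held an E-box and the letters of a TATA box, but no ETS core or STAT motif.

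*Colec12* (ENSMUSG00000036103) encodes a collectin anchored in the membrane, which carries a lectin domain on a collagen-like stalk and takes up sugars and oxidised lipoprotein as a scavenger receptor. It lies on chromosome 18 from 9707595 to 9882644 on the plus strand of GRCm38. In ARG1- microglia, 4 of 6 libraries had no read of it, and the other libraries held 1 and 2 reads. In ARG1+ females the counts were 111, 162 and 131 (3.52, 5.51 and 3.73 CPM), and in ARG1+ males 139, 151 and 44 (3.16, 3.17 and 1.30 CPM). Every ARG1+ library thus held 44 reads or more, and ARG1- libraries held almost none, so that the gene passed the filter through ARG1+ libraries alone. For comparison, 1426 other tested genes had a mean level within 1.5-fold of that of *Colec12*. Of these, 1.19% were at 0 in all 3 ARG1- female libraries and 1.61% in all 3 ARG1- male libraries. In ARG1+ libraries the shares were 0.281% in females and 0.14% in males.

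The mean level of *Colec12* in ARG1+ microglia was 3.40 ± 1.35 CPM (SD, n = 6). The summed counts were 738 in ARG1+ and 3 in ARG1- libraries, a depth-corrected ratio of 259.5 with a 95% interval from the counts alone of 88.45 to 1261. The fitted log2 fold change was 7.60 (SE 0.97, 95% interval 5.49 to 9.71, adjusted p = 0.000676), and its size depends on the few ARG1- reads. It passed the test in females (adjusted p = 0.00934) and in males (adjusted p = 0.0233). Of the 75-base windows of its transcripts, 0.83% also occur in other genes.

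*Mgl2* (ENSMUSG00000040950) encodes a galactose-type lectin, CD301b, known from alternatively activated macrophages and from dendritic cells. It lies at chr11:70130329-70137550 on the plus strand. In females its levels were 0.690, 2.65 and 2.44 CPM in ARG1- and 6.75, 3.27 and 5.01 CPM in ARG1+ libraries. In males all 3 ARG1- libraries were at 0, and the ARG1+ libraries held 0.977, 1.83 and 1.96 CPM. Within each sex every ARG1+ library lay above every ARG1- library. With 3 libraries against 3, the share of all genes tested that separate in this way was not computed. Over both sexes the populations overlapped, because the ARG1+ male libraries lay below ARG1- female replicates 2 and 13. The log2 fold change over both sexes was 3.67 (SE 1.19, 95% interval 1.09 to 6.26), and it did not pass the test (adjusted p = 0.0552). The ratio of the population means was 3.43. With ARG1 status alone in the fit the log2 fold change was 1.77 (adjusted p = 0.377), so that its size depends on the model and on the 0 counts in ARG1- males.

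The effect on *Mgl2* was 1.38 on the log2 scale in females (adjusted p = 0.256). In males, where the ARG1- group had 0 counts against 196 in the ARG1+ group, ARG1+ microglia had an at least 17.7-fold higher level (adjusted p = 0.01), with 3 counts per library as the floor. The difference between these effects did not pass the test (adjusted p = 0.21, unadjusted p = 0.000159), whereas DESeq2 gave it an adjusted p of 0.00309 and called 1.28% of the genes it tested. Of the 8 genes, 0 passed this test with edgeR, *Mgl2* alone had an unadjusted p under 0.05, and DESeq2 called 1.

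*Mgl2* was the only one of the 8 genes that differed between the sexes in 1 population. In ARG1- microglia it was at least 21.5-fold higher in females than in males (adjusted p = 0.0168), where 0.0946% of all genes tested differed between the sexes. In ARG1+ microglia the means were 5.01 CPM in females and 1.59 CPM in males (adjusted p = 1), and 0.0355% of all genes tested differed. Over both populations the sex difference had an adjusted p of 1 (unadjusted p = 0.006) with edgeR, whereas DESeq2 called it, as it did 0.0663% of the genes it tested. The sex difference in ARG1- microglia did not pass with limma voom (adjusted p = 0.295), without ARG1+ female replicate 15 (adjusted p = 0.0511) or with libraries numbered 1 to 12 alone (adjusted p = 0.288). Of 1360 other tested genes with a mean level within 1.5-fold of that of *Mgl2*, 1.1% were at 0 in all 3 ARG1- male libraries and 1.03% in all 3 ARG1- female libraries, against 0.0735% and 0.147% in ARG1+ males and females. Of the 75-base windows of *Mgl2* transcripts, 6.56% also occur in *Clec10a*, the closely related lectin gene beside it, so that some reads could have been set between them.

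*Clec12a* (ENSMUSG00000053063), at chr6:129342691-129365303 on the plus strand, encodes an inhibitory receptor that recognises uric acid crystals of dying cells. Its counts were 37, 0 and 2 in ARG1- females, 0, 34 and 0 in ARG1+ females, 0 in all 3 ARG1- males and 91, 0 and 45 in ARG1+ males. Most libraries thus held no read, and in 4 libraries it appeared with 34 to 91 reads. The log2 fold change was 3.12 with a 95% interval of -2.70 to 8.93 (adjusted p = 0.486), an interval that holds large changes in either direction.

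The 3 *Clec4a* genes encode receptors of the DCIR family of dendritic cells and macrophages, and lie near each other. *Clec4a2* encodes DCIR1, whose tail carries an inhibitory motif and restrains dendritic cell and macrophage activation. *Clec4a1* and *Clec4a3* encode its close relatives. *Clec4a2* fell, and the other two did not pass the test.

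*Clec4a2* (ENSMUSG00000030148) lies at chr6:123106428-123143999 on the plus strand. Its levels were 104.6, 129.0 and 136.5 CPM in ARG1- females and 139.5, 123.6 and 207.9 CPM in ARG1- males. They were 69.2, 55.2 and 81.8 CPM in ARG1+ females and 72.5, 48.6 and 64.8 CPM in ARG1+ males. The highest ARG1+ library (81.8 CPM) lay below the lowest ARG1- library (104.6 CPM). The mean fell from 140.2 ± 35.4 to 65.35 ± 12.02 CPM (SD, n = 6 each), and the log2 fold change was -1.09 (SE 0.175, 95% interval -1.47 to -0.713, adjusted p = 0.00183). Within a sex the log2 fold change was -1.34 in males (adjusted p = 0.019) and -0.84 in females (adjusted p = 0.0522). ARG1- male replicate 14 stood above the other ARG1- libraries, and without it the ratio of the means went from 0.466 to 0.516. Of the 75-base windows of its transcripts, 3.24% also occur in *Clec4a4* and *Clec4b1*, which together held far fewer reads.

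*Clec4a3* (ENSMUSG00000043832, chr6:122952515-122969875, plus strand) had the highest level per length of the 8 genes. It held 130.2, 229.0 and 162.7 CPM in ARG1- females, 152.8, 127.6 and 204.7 CPM in ARG1+ females, 169.3, 163.9 and 260.4 CPM in ARG1- males and 119.4, 103.0 and 128.5 CPM in ARG1+ males. In males all 3 ARG1+ libraries lay below all 3 ARG1- libraries, and the share of all genes tested for which this was so was not computed. In females the populations overlapped. The log2 fold change was -0.43 over both sexes (95% interval -0.858 to -0.00618, adjusted p = 0.165), -0.11 in females and -0.76 in males (adjusted p = 0.102).

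*Clec4a1* (ENSMUSG00000049037, chr6:122921848-122934619, plus strand) was low, at 2.17 to 6.16 CPM in ARG1- and 2.42 to 5.61 CPM in ARG1+ libraries, and the populations overlapped almost completely. Its log2 fold change was -0.17 (adjusted p = 0.778), and the 95% interval of -0.899 to 0.552 holds changes in either direction.

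*Clec5a* (ENSMUSG00000029915) encodes MDL-1, which has a short tail and signals through the adaptor DAP12, and which is known as a receptor for flaviviruses. It lies at chr6:40574894-40585821 on the minus strand, apart from the lectin gene clusters. Its levels were 148.1, 187.6 and 246.6 CPM in ARG1- females and 150.3, 179.9 and 277.6 CPM in ARG1- males. They were 123.1, 106.0 and 152.0 CPM in ARG1+ females and 114.4, 114.1 and 123.0 CPM in ARG1+ males. The populations overlapped by 1 library, since ARG1+ female replicate 15 (152.0 CPM) lay above ARG1- female replicate 1 and ARG1- male replicate 5. The mean fell from 198.4 ± 52.7 to 122.1 ± 15.98 CPM (SD, n = 6 each), a log2 fold change of -0.70 (SE 0.167, 95% interval -1.06 to -0.338, adjusted p = 0.0144). Within each sex the value did not pass the test (-0.61 in females, adjusted p = 0.156, and -0.79 in males, adjusted p = 0.0824), and neither did that over both sexes with libraries numbered 1 to 12 alone (-0.52, adjusted p = 0.0618).

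**Figure D2:**
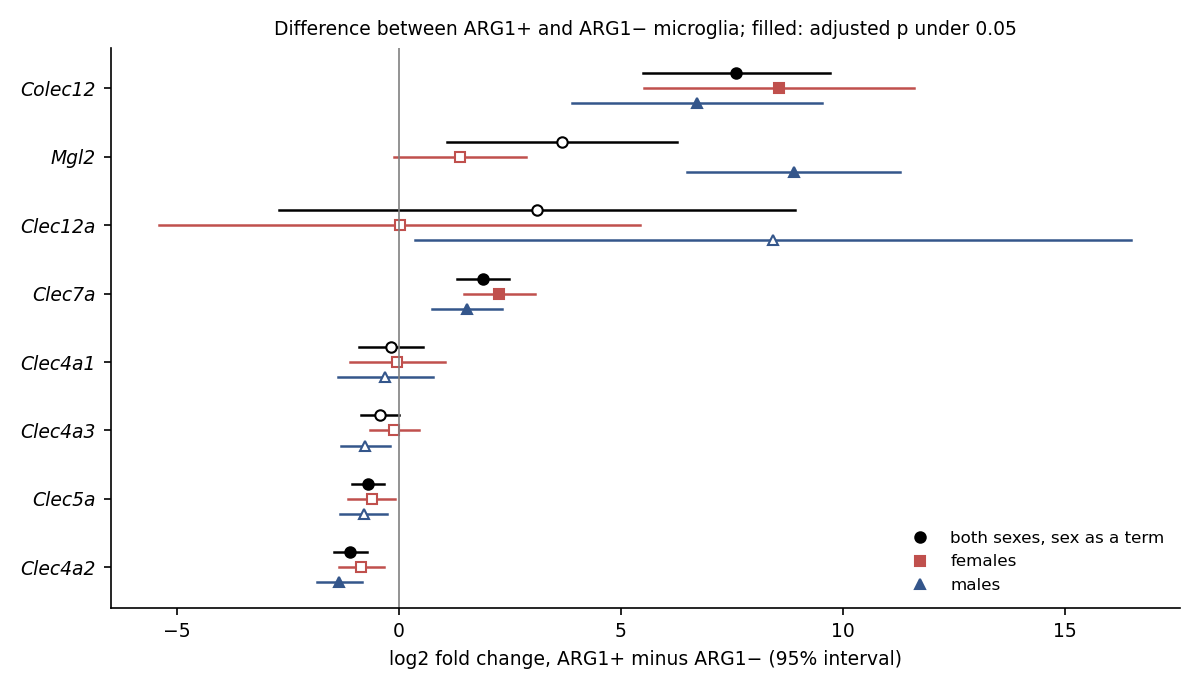
Log2 fold change of each gene, ARG1+ minus ARG1- (horizontal axis, with 95% intervals), over both sexes with sex as a term and in females and males, where filled symbols have an adjusted p under 0.05. *Colec12* and *Clec7a* lie to the right of 0 in all 3 fits, *Clec4a2*, *Clec5a* and *Clec4a3* lie to the left of 0, and the values of *Mgl2* and *Clec12a* in males are set by ARG1- groups at 0.

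Levels were compared between the genes as CPM per kilobase of exon. In ARG1- microglia *Clec4a3* was highest (140.1 ± 36.6 CPM per kilobase, SD, n = 6), followed by *Clec5a* (51.7 ± 13.7) and *Clec4a2* (47.9 ± 12.1), which overlapped, and then by *Clec7a* (7.53 ± 2.64) and *Clec4a1* (2.65 ± 0.885), which overlapped too. *Mgl2* (0.459), *Clec12a* (0.0345) and *Colec12* (0.00175) followed, with overlapping ranges. In ARG1+ microglia *Clec4a3* remained first (105.0 ± 27.0), and *Clec5a* (31.8 ± 4.16), *Clec7a* (29.2 ± 9.42) and *Clec4a2* (22.3 ± 4.11) formed a group in which neighbours overlapped. *Clec4a1* (2.35), *Mgl2* (1.58), *Colec12* (0.390) and *Clec12a* (0.137) made up the low end, again with overlapping neighbours. *Clec7a* thus reached the range of *Clec5a* and *Clec4a2* in ARG1+ microglia, where it had been separated from them in ARG1- microglia.

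**Figure D3:**
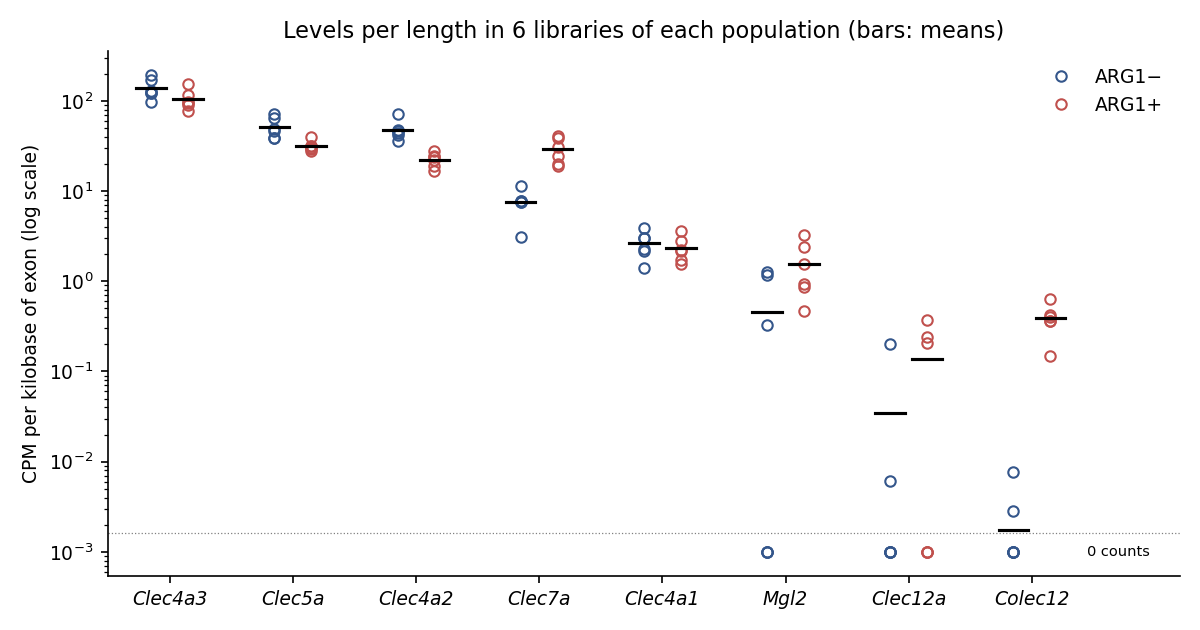
CPM per kilobase of exon (vertical axis, log scale) of the 8 genes in 6 ARG1- and 6 ARG1+ libraries, ordered by the ARG1- mean, with bars for means and libraries without a read drawn below the dotted line. *Clec7a* moved from 7.53 to 29.2 CPM per kilobase, close to *Clec5a* and *Clec4a2*, and *Clec4a3* was highest in both populations.

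As a share of the summed CPM per kilobase of the 8 genes, *Clec7a* made up 3.24% ± 1.43 in ARG1- and 15.02% ± 3.29 in ARG1+ libraries (SD, n = 6 each). *Clec4a2* made up 19.15% ± 1.83 and 11.7% ± 1.69, and *Clec4a3* 55.7% ± 4.08 and 54.2% ± 1.98. The ranges of the first pair did not overlap between the populations, and those of *Clec4a3* did. The CPM summed over the 8 genes were 549.6 ± 120.0 in ARG1- and 414.8 ± 80.8 in ARG1+ libraries, with overlapping ranges. The shares of *Clec7a* and *Clec4a2* thus separated the populations, and the sum did not.

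*Clec4a2*, *Clec4a1*, *Clec4a3* and *Clec5a* tended to vary together between libraries of a group, though not in every library. Pearson's r of log2 CPM over the 12 libraries, after the group means had been subtracted, lay between 0.596 (*Clec4a1* with *Clec5a*) and 0.872 (*Clec4a1* with *Clec4a2*) among these 4 genes. *Clec7a* tended the other way, with r between -0.624 and -0.459 against each of them. ARG1- male replicate 14 had the highest level of these 4 genes and the lowest of *Clec7a*, and its weight in r was not tested. ARG1- female replicate 13 held more *Clec4a2* than replicate 2 (136.5 and 129.0 CPM) but less *Clec4a3* (162.7 and 229.0 CPM). ARG1+ female replicate 15 was the highest of its group in both *Clec7a* and *Clec4a2*. The points share their library, its depth and its sex, and no test was made of these values.

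In GRCm38, 3 of the genes lie in a stretch of chromosome 6 that runs from *Foxj2* to *Clec4d*, in the order *Clec4a1*, *Clec4a3*, *Clec4a4*, *Clec4b1*, *Clec4a2*, *Clec4b2*, *Clec4n* and *Clec4d*. *Clec4a4* held 0.691 and 0.847 CPM in ARG1- and ARG1+ microglia and did not pass the test (adjusted p = 0.826). *Clec4b1* and *Clec4b2* were too low to be tested, and *Clec4d* had no read. *Clec4n*, which encodes the activating receptor Dectin-2, had no read in ARG1- libraries and 204 reads in 5 of 6 ARG1+ libraries. Of these, 135 were in ARG1+ male replicate 11, and ARG1+ female replicate 7 had none. The gene passed the filter through ARG1+ libraries alone (adjusted p = 0.0151). Its ARG1+ mean of 0.822 CPM (median 0.494) was 10.2-fold the floor of 3 counts per library, a fold that leans on replicate 11. *C3ar1*, the receptor for complement C3a at the edge of the stretch, rose from 254.5 ± 33.0 to 505.6 ± 39.0 CPM (SD, n = 6 each, log2 fold change 0.99, adjusted p = 0.000187). A fall of *Clec4a2* and a rise of *C3ar1* were thus measured within 1 stretch, in which *Clec4n* had reads in ARG1+ libraries alone.

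*Clec12a* and *Clec7a* lie in a second stretch of chromosome 6, with *Clec12b*, *Clec1b*, *Clec9a* and *Clec1a* between them. *Clec1a*, whose product binds fungal melanin, had no read in ARG1- libraries and 164 reads in 5 of 6 ARG1+ libraries. Of these, 82 were in ARG1+ female replicate 7, and ARG1+ female replicate 15 had none. This gene too passed the filter through ARG1+ libraries alone (adjusted p = 0.0225). Its ARG1+ mean of 0.759 CPM (median 0.386) was 9.40-fold the floor of 3 counts per library, a fold that leans on replicate 7. *Clec1b*, the platelet receptor CLEC-2, held 0.694 and 0.751 CPM (adjusted p = 0.89). *Olr1*, the receptor LOX-1 for oxidised lipoprotein, held 2.43 ± 2.01 and 5.49 ± 4.05 CPM (adjusted p = 0.516), and *Gabarapl1* on the far side held 19.0 and 15.3 CPM (adjusted p = 0.159). *Clec12b* and *Clec9a* were too low to be tested. Of the neighbours of *Mgl2* on chromosome 11, the asialoglycoprotein receptor gene *Asgr2* held 0.578 and 0.366 CPM (adjusted p = 0.731), and *Clec10a* had 6 reads, all in 1 ARG1+ library.

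**Figure D4:**
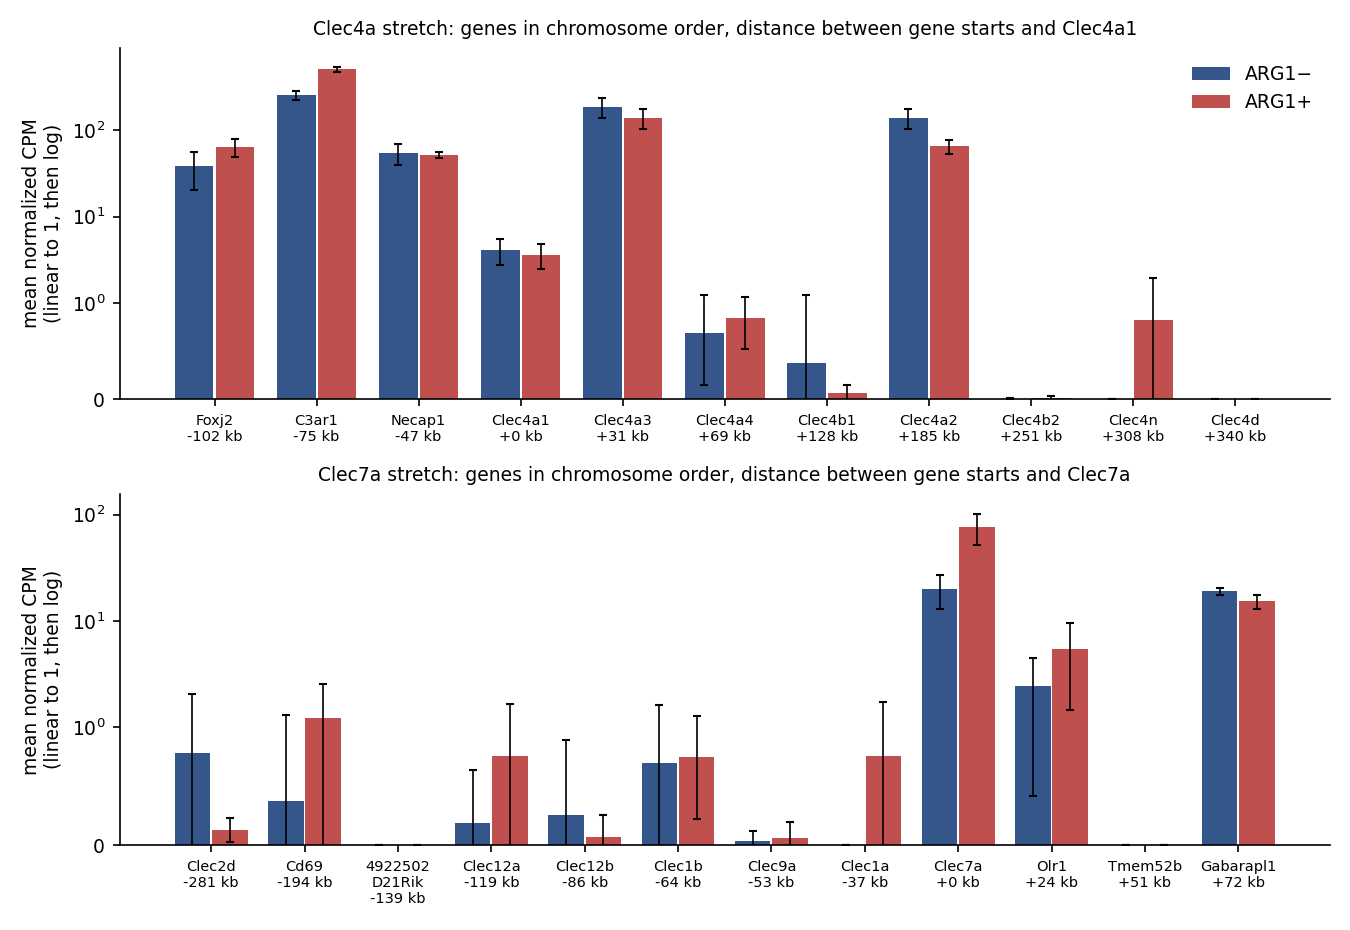
Mean normalized CPM ± SD over 6 libraries of each population (vertical axes, linear to 1 and logarithmic above) for the genes of both lectin stretches of chromosome 6 in chromosome order, with the distance of the lower end of each gene from that of *Clec4a1* or *Clec7a* below the name. Of the genes that passed the test, *C3ar1* and *Clec4n* have higher bars and *Clec4a2* a lower bar in ARG1+ microglia in the upper stretch. In the lower stretch these are *Clec7a* and *Clec1a*, with higher bars. Bars of other genes, such as *Foxj2*, *Olr1*, *Clec12a* and *Cd69*, are higher too, but these genes did not pass the test.

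Of 43 other C-type lectins and collectins, 24 had a read in at least 1 library, 13 could be tested, and 2 rose and 1 fell, where 6.44% of all genes tested rose and 9.42% fell. Their median log2 fold change was 0.29, beside 0.06 over all genes tested. The genes that rose, *Clec1a* and *Clec4n*, had no read in any ARG1- library and passed the filter through ARG1+ libraries. Their mean levels lay within 1.5-fold of that of *Clec12a*, as did those of other genes. Of 1720 such genes tested, 8.6% were at 0 in all 3 ARG1- female libraries and 9.07% in all 3 ARG1- male libraries. In ARG1+ libraries the shares were 2.09% in females and 2.03% in males. *Cd302*, a lectin involved in phagocytosis and cell migration, fell from 112.9 ± 12.5 to 53.6 ± 9.10 CPM (SD, n = 6 each, log2 fold change -1.08, SE 0.132, adjusted p = 0.000578). All 6 ARG1+ libraries lay below all 6 ARG1- libraries, as for 6.56% of all genes tested. Of the other well expressed members, the mannose receptor gene *Mrc1* held 121.4 ± 16.1 and 147.1 ± 46.4 CPM (adjusted p = 0.371), and its product CD206 had been used to remove cells in the sort. *Mrc2* held 51.7 ± 19.1 and 30.8 ± 10.5 CPM (adjusted p = 0.137), and *Cd72*, an inhibitory lectin, 33.8 ± 6.56 and 38.5 ± 10.7 CPM (adjusted p = 0.671). *Clec4e*, the gene of the activating receptor Mincle, had no read, and neither had 5 of 6 soluble collectin genes, *Colec11* being present in 1 library. Among 4 class A scavenger receptor genes, the group that *Colec12* is related to by its uptake function, *Msr1* held 1.08 ± 1.39 and 4.55 ± 1.79 CPM (adjusted p = 0.134) and the others were too low to be tested.

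Of 25 genes of activating signalling below these receptors, 1 rose and 3 fell, a share near the 15.9% called over all genes tested, and the median log2 fold change was 0.10. *Tyrobp*, the adaptor DAP12 that CLEC5A needs, fell from 1316 ± 137 to 660.2 ± 160 CPM (SD, n = 6 each, log2 fold change -0.997, SE 0.154, adjusted p = 0.00153). *Fcer1g*, the adaptor of Dectin-2, fell from 843.9 ± 32.2 to 501.8 ± 111 CPM (log2 fold change -0.75, adjusted p = 0.0031). For both adaptors all 6 ARG1+ libraries lay below all 6 ARG1- libraries, as for 6.56% of all genes tested. The Src family kinase gene *Lyn* (-0.25 on the log2 scale, adjusted p = 0.0419) fell too, and *Nfatc1*, a transcription factor that acts downstream of calcium signals, rose (0.47, adjusted p = 0.0428).

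Of the genes that act downstream of Dectin-1, *Syk*, *Card9*, *Bcl10*, *Malt1* and *Plcg2* did not pass the test. *Syk* held 200 ± 51.5 and 220 ± 47.4 CPM (adjusted p = 0.638), *Card9* 20.04 ± 8.09 and 28.7 ± 7.50 CPM (adjusted p = 0.293) and *Bcl10* 66.6 ± 19.5 and 67.7 ± 11.5 CPM (adjusted p = 0.968). *Malt1* held 29.6 ± 8.87 and 32.7 ± 7.22 CPM (adjusted p = 0.703) and *Plcg2* 291.8 ± 95.6 and 297 ± 67.8 CPM (adjusted p = 0.949). *Cybb*, the catalytic subunit of the phagocyte oxidase, held 1.66 ± 3.09 and 9.37 ± 3.24 CPM (adjusted p = 0.216).

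Of 12 genes of inhibitory signalling, 3 rose and 1 fell, where 6.44% of all genes tested rose and 9.42% fell, and the median log2 fold change was 0.31. *Dok2*, an adaptor that restrains tyrosine kinase signals, had reads in 1 of 6 ARG1- libraries and held 2.76 to 9.16 CPM in ARG1+ libraries (log2 fold change 5.72, SE 1.55, adjusted p = 0.0264). *Dok2* passed the filter through ARG1+ libraries. The size of its fold change depends on the few ARG1- reads, which were 60, all in ARG1- male replicate 5. *Pag1* (0.46, adjusted p = 0.0395) and *Ptprc* (0.45, adjusted p = 0.0186) rose by less. *Ptpn6*, the phosphatase SHP-1 that the tail of DCIR1 recruits, fell from 811.7 ± 62.5 to 650.5 ± 67.2 CPM (log2 fold change -0.32, SE 0.086, adjusted p = 0.0253), in the same direction as *Clec4a2* but with overlapping populations. The lipid phosphatase gene *Inpp5d* held 795.9 ± 134 and 894.2 ± 175 CPM (adjusted p = 0.483).

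**Figure D5:**
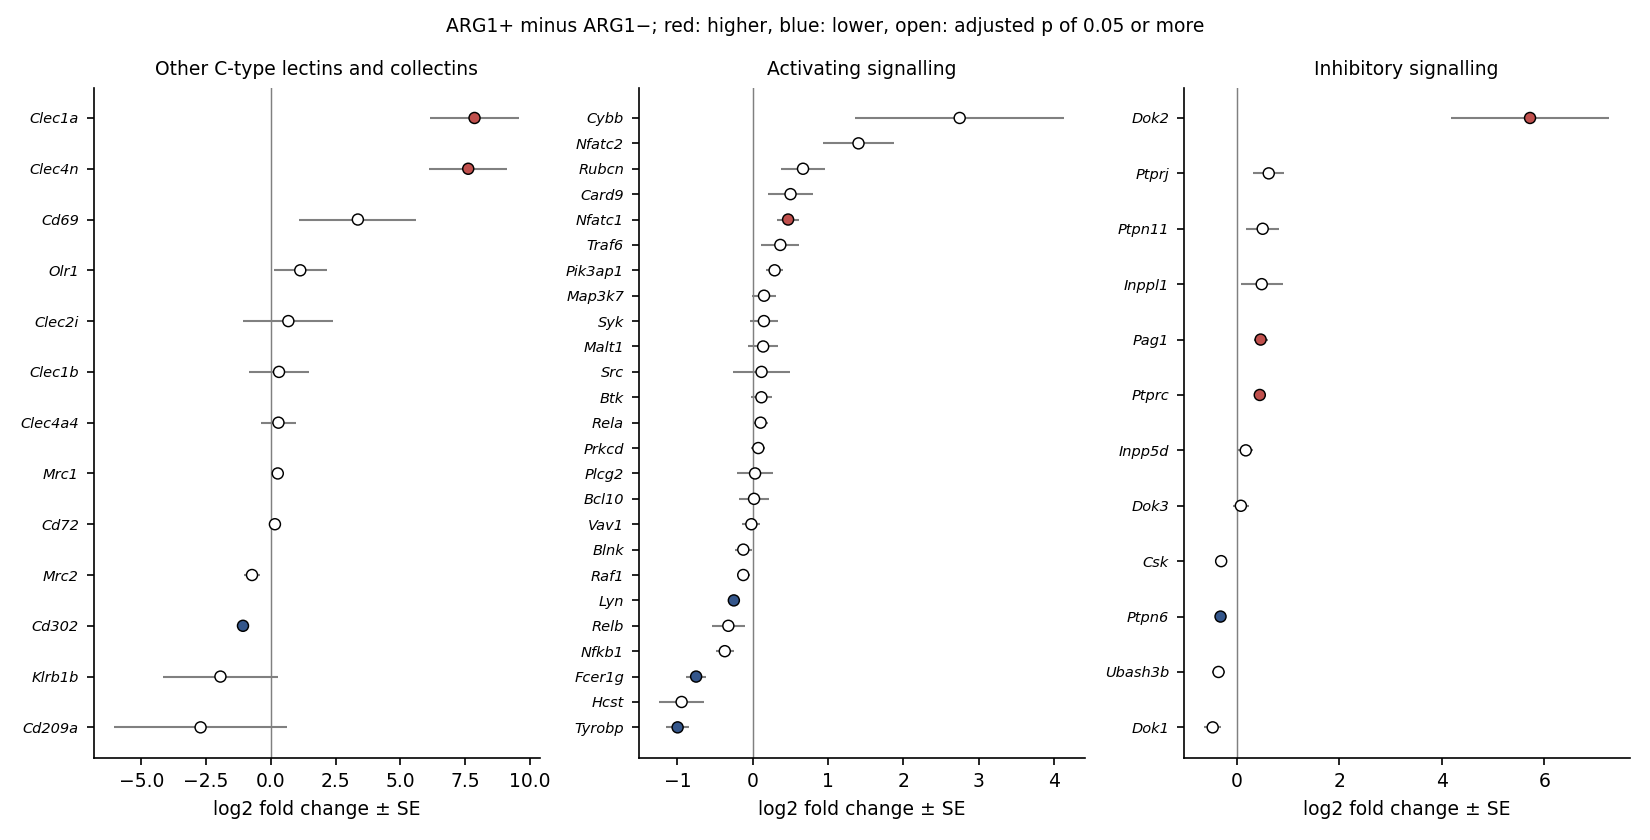
Log2 fold change ± SE, ARG1+ minus ARG1- (horizontal axes), of the tested genes in the lists of other C-type lectins and collectins and of activating and inhibitory signalling, with red for higher, blue for lower and open points for genes that did not pass the test. The adaptors *Tyrobp* and *Fcer1g* and the lectin *Cd302* are the lowest genes of their lists that passed the test. Of genes that did not pass, *Cd209a* and *Klrb1b* lie below *Cd302*, and *Hcst* lies between the adaptors. The points of *Clec1a* and *Clec4n*, which had no read in ARG1- libraries, depend on the small count that the fit adds.

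Several of the 8 genes are also used by border macrophages, monocytes or dendritic cells, and markers of these cells were read beside them. Of 11 border macrophage genes, 8 could be tested, and *Folr2* and *Stab1* rose, where 6.44% of all genes tested rose. The summed level of the 11 genes was 310.9 to 519.9 CPM in ARG1- and 409.8 to 846.1 CPM in ARG1+ libraries. *Cd163* and *Lyve1* were at 0 in all ARG1- libraries and at a mean of 0.119 and 0.0662 CPM in ARG1+ libraries, and *Cd209f* was at 0 in all. The ARG1- and ARG1+ means were 0.353 and 2.73 CPM for *Ms4a7*, 4.23 and 13.99 CPM for *Siglec1* and 0.563 and 1.03 CPM for *Pf4*. They were 3.40 and 1.99 CPM for *Cbr2* and 2.79 and 1.93 CPM for *F13a1*, and none of these genes passed the test. Of 8 monocyte genes, 4 could be tested, and *Plac8* fell and *Fn1* rose, where 9.42% of all genes tested fell and 6.44% rose. *Fn1* had no read in ARG1- libraries and 168 reads in 4 of 6 ARG1+ libraries, and passed the filter through ARG1+ libraries alone. *Chil3* was at 0 in all libraries. The summed level of the monocyte genes was 5.12 to 14.1 CPM in ARG1- and 3.89 to 7.76 CPM in ARG1+ libraries. Of 12 dendritic cell genes none was called among 9 tested, where 15.9% of all genes tested were called. Their summed level was 155.6 to 243.4 CPM in ARG1- and 186.8 to 537.8 CPM in ARG1+ libraries, of which *Cd74* made up most. The part of such cells in the levels of *Mgl2*, *Colec12* and *Clec4n* was not tested.

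Differences between the populations also moved with transcript length. When the tested genes were divided into 4 classes of equal size by length, the median log2 fold change was -0.12 in the class of the shortest and 0.29 in that of the longest. Of 13 genes with detained introns, 7 were higher in ARG1+ microglia, where 6.44% of all genes tested were higher. Of 13 mitochondrially encoded genes, 8 were tested and 4 were lower, where 9.42% of all genes tested were lower. In the shortest class 582 of 4221 genes were called lower, against 120 of 4218 in the longest. *Clec4a1* and *Clec4a3* are in the shortest class, *Clec7a*, *Mgl2* and *Clec4a2* in the second, *Clec5a* and *Clec12a* in the third and *Colec12* in the longest. *Tyrobp*, *Fcer1g* and *Cd302* are in the shortest class too. With the length trend of each library removed, chosen after seeing the data, the log2 fold changes were 1.98 for *Clec7a*, 7.32 for *Colec12*, -1.05 for *Clec4a2* and -0.73 for *Clec5a* (adjusted p = 0.0217), and that of *Mgl2* was 3.84 (adjusted p = 0.049).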

How the data were processed

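RNA-seq counts of 12 libraries were used. Each library came from pooled tissue of several mice, cDNA was made with SMART-Seq v4 and libraries with Nextera XT, and 75-base single-end reads were obtained. Per the labels and the methods, the authors aligned reads with STAR 2.6.1d to GRCm38 and counted them with featureCounts 1.5.1. The values the authors deposited are raw counts per gene, without normalization, and 0 columns were left unused. How reads in several genes and the strand were handled is not given in the sources used here. GENCODE M21 matched 55141 of 55487 identifiers, and the others held 0.0734% of counts.

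Low counts were filtered by filterByExpr (4 groups), and genes were normalized by TMM and tested in R 4.3.3 with edgeR 4.0.16 (glmQLFit, glmQLFTest), with sex as a term, and with Benjamini–Hochberg adjustment. Effects within a sex, sex differences and the difference of effects came from a fit of 4 group means. Scripts were tested on simulated data. SE and 95% intervals follow from the F statistic. With 0 counts in a group, folds were computed against 3 counts per library, as the mean in normalized CPM over the group at 0. This floor was 0.0807 CPM for all ARG1- libraries and 0.0895 CPM for ARG1- males. Promoters are from RefSeq (GRCm38.p6).

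Named are the 8 genes, called and well expressed genes of the lists, chromosome neighbours, markers, and the 3 genes most like each gene. The genes and lists were chosen with earlier results of these data known, and 1 listed gene is not reported here. Alternatives were DESeq2 1.42.0 and limma 3.58.1 (voom), DESeq2 size factors, upper-quartile factors, no filter, at least 10 counts in every library, thinning, a term for libraries numbered 13 to 16, ARG1 status alone and each library left out. Libraries numbered 1 to 12 alone, removal of the length trend and the sex difference over both populations were added after seeing the data.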

Additional observations from a re-analysis of the deposited data

Results flagged for a closer look

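In 36 groups of 6 libraries, 1 population for each gene described, the highest or lowest library was compared with the others by the size of its gap. In 8 of them the library stood far from the other 5 by Dixon's test, and the test flags about 1 in 20 groups by chance (1.8 here) if values are normally distributed. Groups of reads near 0, as for *Colec12*, *Clec12a*, *Clec1a*, *Clec4n* and *Dok2*, are not, and each group holds both sexes, so that the 2 numbers cannot be compared. Among the 8 lectin genes, ARG1- male replicate 14 held 208.0 CPM of *Clec4a2*, where the other ARG1- libraries held 105.0 to 139.0. ARG1+ female replicate 15 held 152.0 CPM of *Clec5a*, where the others held 106.0 to 123.0. *Clec12a* stood at 1.11 CPM (37 reads) in ARG1- female replicate 1 and at 0 to 0.0341 in the others, and *Colec12* at 0.0669 CPM (2 reads) in ARG1- male replicate 6 and at 0 to 0.025 in the others.

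Among the related genes, ARG1+ female replicate 7 held 2.6 CPM of *Clec1a* (others 0 to 0.945) and ARG1+ male replicate 11 held 3.07 CPM of *Clec4n* (others 0 to 0.622). ARG1+ male replicate 12 held 36.4 CPM of *Cd302* (others 52.2 to 61.6), and ARG1- male replicate 5 held 1.59 CPM of *Dok2*, where the others had no read. What sets these libraries apart was not tested.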

How the results depend on the processing

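Of 23 alternatives, *Clec7a* and *Clec4a2* passed the test in the same direction in all 23, *Clec5a* in 22 and *Colec12* in all 22 that gave it a value, and *Clec4a1*, *Clec4a3* and *Clec12a* in none. *Mgl2* passed in 3 of 22, with DESeq2 (adjusted p = 0.000413), without ARG1+ female replicate 8 (0.0484) and with the length trend removed (0.049). In alternatives other than left-out libraries its log2 fold change ranged from 1.77 (ARG1 status alone) to 3.97 (DESeq2). The requirement of 10 counts or more in every library dropped *Mgl2*, *Colec12* and *Clec12a*. *Clec4a1* ranged from -0.35 to 0.018 on the log2 scale when each library was left out, and the positive value came without ARG1- male replicate 14. The number of genes called ranged from 1753 (without ARG1+ male replicate 12) to 2669 when each library was left out, and was 638 with libraries numbered 1 to 12 alone, where fewer samples were tested. With DESeq2, 1 gene of the 8, *Mgl2*, was called for the difference of ARG1 effects between the sexes and 1 for the sex difference over both populations, where edgeR called 0. The number called for a sex difference within 1 population went from 1 to 0 with at least 10 counts in every library, with limma voom and with libraries numbered 1 to 12 alone, and ranged from 0 to 1 when each library was left out (0 without ARG1+ female replicate 15). For the lists, alternatives other than left-out libraries gave 1 to 4 genes among other C-type lectins, 1 to 8 in activating and 0 to 5 in inhibitory signalling. The cause of these changes was not tested. No paired analysis was made, because the groups share no replicate number and the labels do not say which libraries came from the same brains. The tests thus treat the libraries as independent. Genes at 0 to 3 counts in a library, such as *Colec12* in ARG1- microglia, are limited by depth and by amplification.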

Other observations

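For each of the 8 genes, the 3 protein-coding genes of at least 10 CPM whose levels ran most alike were named by Pearson's r of log2 CPM over 12 libraries after the means of the 4 groups had been subtracted, out of 8546 genes searched. For *Clec7a* these were *Rfx5*, *Nsun5* and *Cul4b* (r from 0.966 to 0.97). For *Colec12* these were *Spns1*, *Taz* and *Dus3l* (r from 0.896 to 0.929). For *Mgl2* these were *Tet2*, *Sin3a* and *Ints6* (r from 0.946 to 0.955). For *Clec4a2* these were *Mrpl11*, *Ran* and *Pfdn1* (r from 0.936 to 0.958). For *Clec4a3* these were *Ang*, *Ufsp2* and *Snx2* (r from 0.902 to 0.906). For *Clec4a1* these were *Cdkn3*, *Tatdn3* and *Zfp330* (r from 0.921 to 0.936). For *Clec5a* these were *Snx6*, *Med21* and *Dkc1* (r from 0.941 to 0.947). For *Clec12a* these were *St3gal5*, *Mgat2* and *Ralb* (r from 0.903 to 0.911). With 12 libraries and 8546 genes searched, values this high are a description of these libraries, and no test was made. Ranked by Spearman's rho instead, 10 of the 24 genes were named again. *Mrpl11*, *Ran* and *Pfdn1*, the genes most like *Clec4a2*, were lower in ARG1+ microglia as *Clec4a2* was, with adjusted p of 0.0085, 0.00519 and 0.0139. Of the 3 genes most like *Clec7a*, none passed the test between the populations (adjusted p from 0.795 to 0.929).

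By mean CPM over all 55487 genes, *Clec7a* went from place 7015 in ARG1- to place 2486 in ARG1+ microglia, and *Colec12* from place 22087 to place 11076. *Clec4a2* went from place 1273 to place 2969 and *Clec5a* from place 795 to place 1471. *Clec4a3* stood at places 871 and 1229, and *Clec4a1* at places 10619 and 10943.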
